A study of Mus musculus with 8 samples.

Results

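The 4 genes described here are App, the mouse amyloid precursor protein gene, its paralogues Aplp1 and Aplp2, and Prnp, the prion protein gene. They were chosen by symbol, through the Ensembl identifiers of the count table, and are 4 of its 56748 genes. All 4 were abundant enough to be tested. The tissue came from TgCRND8 transgenic mice (Tg), which overexpress APP, and from their non-transgenic littermates (NTg), both aged 18 months, with 4 libraries of polyadenylated RNA per genotype. TgCRND8 is a line that carries a human APP transgene with familial Alzheimer's disease mutations under the control of the hamster prion protein gene's regulatory sequence. It is a model of APP overexpression and not of altered endogenous App. The labels give every library the same batch value, and whether the libraries come from different animals is not stated, so the p-values below measure the spread between these libraries. Every fold change is Tg over NTg.

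App is a single-pass membrane protein. Cleavage by alpha-secretase releases its soluble ectodomain, whereas cleavage by beta-secretase and then gamma-secretase releases the amyloid-beta peptide that forms plaques. Aplp1 and Aplp2 share the ectodomain folds and the cytoplasmic tail of App but lack the amyloid-beta sequence. Prnp encodes the cell surface glycoprotein whose misfolded form is the infectious agent of prion disease, and neurons express it strongly.

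The libraries held 57129090 to 65242741 counts. The tissue is labelled brain and its protocol names forebrain. Neuronal markers were abundant, with summed levels of 6269 to 7019 CPM in Tg, where CPM is the count divided by the TMM-scaled library size, and 6743 to 7021 CPM in NTg. Forebrain markers summed to 114 to 185 CPM in Tg and 163 to 195 CPM in NTg. Transcripts of the cerebellum and hindbrain were present too, at 348 to 520 CPM in Tg and 215 to 543 CPM in NTg, and these include Gabra6 and Cbln3, which mark cerebellar granule cells, so the labelled forebrain held some cerebellar RNA. No marker in any list was at 0.

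Stretches of sequence from the mouse genes follow. The human transgene was not compared with them base by base, so they do not show how far its reads can be told from those of mouse App. The first is the part of the mouse App transcript that codes for amyloid-beta, 126 bases on chromosome 16 from GENCODE mouse release M21, which covers residues 597 to 638 of the 695-residue form. Capitals mark the 3 codons at which the mouse peptide is known to differ from the human one, so that outside them the transgene and the mouse gene encode the same peptide here. The second is the longest run of bases that App and Aplp2 transcripts have in common, which is coding in both and 24 bases long.
App amyloid-beta coding stretch: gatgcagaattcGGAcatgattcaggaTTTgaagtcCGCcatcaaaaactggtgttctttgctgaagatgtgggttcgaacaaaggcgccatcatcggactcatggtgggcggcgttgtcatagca
App and Aplp2 longest identical run: ctatggcatgctgctgccctgcgg
The longest identical runs of the other pairs among the 4 genes were 13 to 17 bases. Each run is well below the read length of 75 bases, so no stretch of a full read is identical between these genes. The count table has 1 App row, and the share of its reads that came from the human transgene was not measured.

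The third is the sequence just upstream of the start of transcription. It is shown for App, whose own promoter does not drive the transgene, and for Prnp, the mouse counterpart of the hamster gene whose regulatory sequence does. The windows are the 250 bases before the start in RefSeq on GRCm38.p6, at chr16:85173708-85173957 on the minus strand for App and chr2:131909678-131909927 on the plus strand for Prnp. Capitals mark GC boxes, searched as GGGCGG on both strands.
App promoter: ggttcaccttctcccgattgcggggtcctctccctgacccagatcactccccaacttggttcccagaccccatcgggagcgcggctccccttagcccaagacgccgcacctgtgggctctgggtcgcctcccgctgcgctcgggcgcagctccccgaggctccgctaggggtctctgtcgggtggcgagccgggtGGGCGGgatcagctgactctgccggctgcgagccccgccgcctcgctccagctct
Prnp promoter: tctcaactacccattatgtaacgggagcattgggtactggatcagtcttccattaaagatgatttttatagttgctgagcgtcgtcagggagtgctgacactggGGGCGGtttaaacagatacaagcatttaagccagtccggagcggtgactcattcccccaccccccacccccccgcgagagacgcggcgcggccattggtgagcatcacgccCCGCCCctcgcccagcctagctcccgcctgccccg
The App window is 70.8% GC and holds 1 GC box, no CCAAT and no TATAAA on either strand. The Prnp window is 58.8% GC and holds 2 GC boxes, 2 matches to CCAAT and 1 to TATAAA on either strand, none of which overlap. Aplp1 has 66.0% GC and 1 GC box, and Aplp2 has 66.4% GC and 3 GC boxes. The median over 32851 RefSeq windows of the same length was 52.4% GC, and GGGCGG was present in 32.7% of them, CCAAT in 33.8% and TATAAA in 12.4%.

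Counts in the App row were higher in Tg. The genome build given is that of mouse, and how many transgene reads this row holds or misses was not measured. The Tg values of App, here and below, are therefore not known to be mouse App alone or all APP RNA. App (ENSMUSG00000022892) had 2532, 2934, 2980 and 2958 CPM in the 4 Tg libraries, against 1623, 1486, 1452 and 1390 CPM in the 4 NTg libraries. The genotypes did not overlap, and Tg replicate 1 was the lowest of the Tg libraries. The means were 2851 ± 213 CPM in Tg and 1488 ± 98.4 CPM in NTg (SD, n = 4 each), a log2 fold change of 0.94 with an SE of 0.071 (95% interval 0.78 to 1.10), or 1.92-fold. With edgeR's quasi-likelihood test and Benjamini-Hochberg adjustment over 21588 genes, the adjusted p was 0.00146. By this test 0.0139% of all genes were called, and of the 4 genes described here App was the 1 that was. Genes whose libraries did not overlap between genotypes, with Tg higher, made up 2.62% of those tested, and with Tg lower 1.58%. Without Tg replicate 1 the log2 fold change of App was 0.99 (adjusted p = 0.000356 with edgeR).

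App took 0.257 to 0.298% of all counts in a Tg library, against 0.136 to 0.163% in an NTg library. It was the 15th to 18th most abundant of the tested genes in the Tg libraries, against the 32nd to 35th in the NTg libraries. Of 204 genes with a mean of 500 CPM or more, 3 differed by at least as much as App on the log2 scale, App itself included. Neither of the others was called by edgeR. Gfap, the astrocyte filament gene, had a log2 fold change of 1.83 (edgeR adjusted p = 0.107). Ttr, the thyroid hormone carrier made by the choroid plexus, stood at 438, 279, 289 and 528 CPM in Tg, against 813, 780, 549 and 848 CPM in NTg (log2 fold change -0.96, edgeR adjusted p = 0.167). The median size of a change in these genes, in either direction, was 0.065.

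**Figure D1:**
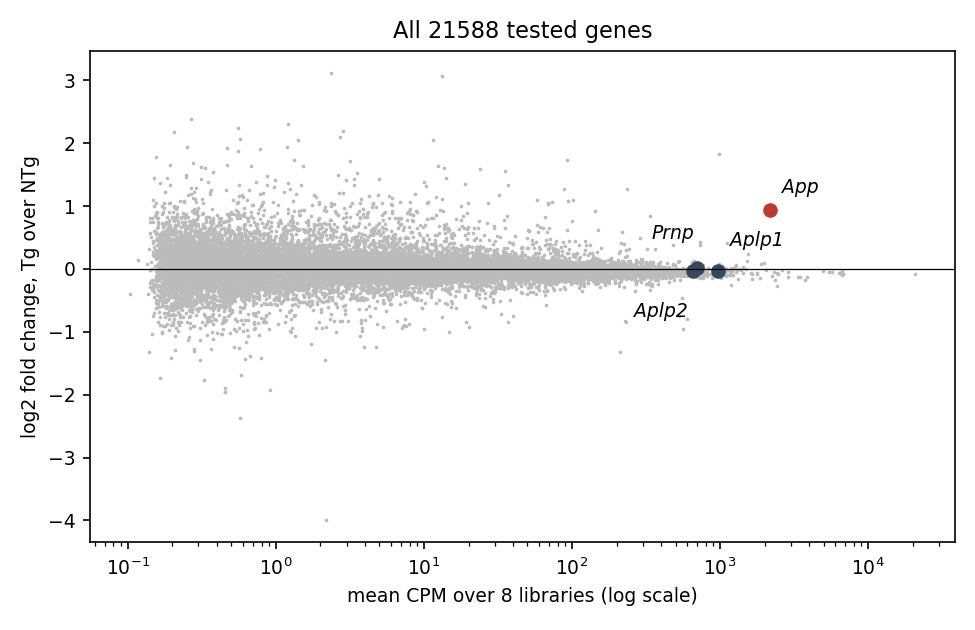
Log2 fold change of each tested gene, Tg over NTg, against its mean CPM over the 8 libraries on a log scale. Each grey point is 1 of 21588 genes; App, in red, lies at 0.94, and Prnp, Aplp1 and Aplp2, in dark blue, lie within 0.05 of 0.

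Set against the NTg mean, App exceeded it by 1044, 1446, 1492 and 1470 CPM in Tg replicates 1 to 4, or 1.70-, 1.97-, 2.00- and 1.99-fold. The other 3 libraries lay close together, and the excess in replicate 1 lay 28.9% below their mean excess. That library also had the lowest sums among Tg for forebrain markers (114 CPM), for glutamatergic neuron markers (1720 CPM), for astrocyte markers (3387 CPM), for microglial markers (366 CPM) and for neuronal markers as a whole (6269 CPM). It had the highest sums among Tg for red blood cell (3003 CPM), cerebellum and hindbrain (520 CPM), GABAergic neuron (1168 CPM), striatum (285 CPM) and endothelium (162 CPM) markers. Whether these levels have a part in its App level was not tested.

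Aplp1, the family member that is largely confined to neurons, did not pass the test. Aplp1 (ENSMUSG00000006651) had 953, 922, 918 and 1032 CPM in the Tg libraries, against 1033, 976, 996 and 893 CPM in the NTg libraries. The genotypes overlapped across almost their whole range. The means were 956 ± 52.7 CPM in Tg and 975 ± 59.2 CPM in NTg (SD, n = 4 each), and the log2 fold change was -0.027 with an SE of 0.061 (edgeR adjusted p = 0.973). The 95% interval of the change ran from -10.8% to 7.86%.

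Aplp2, the widely expressed paralogue, did not pass either. Aplp2 (ENSMUSG00000031996) had 638, 666, 664 and 606 CPM in the Tg libraries, against 689, 644, 658 and 657 CPM in the NTg libraries. The ranges overlapped, and the lowest value was that of Tg replicate 4. The means were 644 ± 28.2 CPM in Tg and 662 ± 19.0 CPM in NTg (SD, n = 4 each), with a log2 fold change of -0.041 and an SE of 0.049 (edgeR adjusted p = 0.939). The 95% interval ran from -9.87% to 4.85%.

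Prnp had the smallest difference of the 4 genes. Prnp (ENSMUSG00000079037) had 665, 726, 717 and 710 CPM in the Tg libraries, against 734, 685, 691 and 688 CPM in the NTg libraries. The genotypes overlapped, with the highest value in NTg replicate 1 and the lowest in Tg replicate 1. The means were 704 ± 27.0 CPM in Tg and 700 ± 23.3 CPM in NTg (SD, n = 4 each), with a log2 fold change of 0.010 and an SE of 0.048 (edgeR adjusted p = 0.992). The 95% interval ran from -6.56% to 8.53%, so a change of the size seen for App lay outside it, as it did for Aplp1 and Aplp2.

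**Figure D2:**
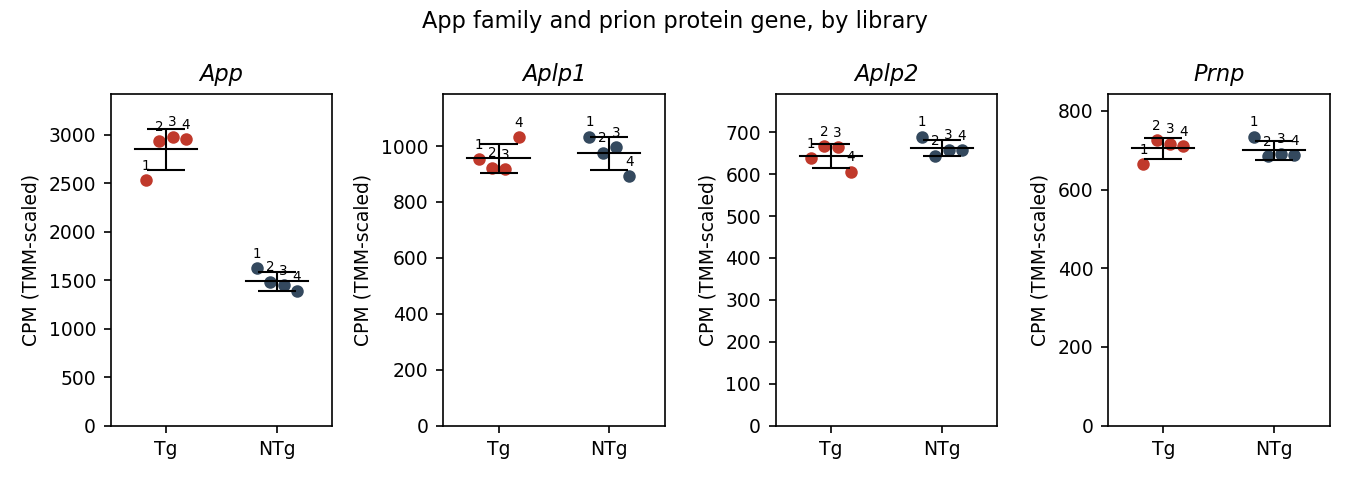
CPM of App, Aplp1, Aplp2 and Prnp in each library, with a panel per gene and its own vertical axis from 0; points are libraries labelled by replicate number, and horizontal lines with bars are the mean ± SD of 4. The Tg libraries of App lie between 2532 and 2980 CPM and the NTg libraries between 1390 and 1623 CPM, while the other 3 genes overlap between genotypes.

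Counting error was small beside the spread between libraries. Each gene had 35325 to 178405 counts in a library, which gives a counting error of 0.24 to 0.53%, whereas the coefficient of variation within a genotype was 2.87 to 7.48%. The biological coefficient of variation fitted by edgeR was 8.11% for App, 7.32% for Aplp1, 6.33% for Aplp2 and 6.30% for Prnp. Of the genes whose level was within 2-fold of each, 43.1% varied less than App, 46.0% less than Aplp1, 15% less than Aplp2 and 12.7% less than Prnp. Aplp2 and Prnp were thus among the steadier genes of their abundance, and App and Aplp1 were near the middle.

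Ratios within a library do not depend on how libraries were scaled. The App count was 1.59, 1.85, 1.88 and 1.81 times the summed Aplp1 and Aplp2 counts in the Tg libraries, against 0.942, 0.917, 0.878 and 0.897 times in the NTg libraries. App exceeded the sum of its paralogues in every Tg library and was below it in every NTg library. The log2 ratios differed by 0.97 (exact two-sided permutation p = 0.0286, adjusted p = 0.0429 over 3 ratios), and 0.0286 is the smallest p that 4 against 4 libraries can give. The ratio of App to Prnp counts was 3.81, 4.04, 4.16 and 4.17 in Tg, against 2.21, 2.17, 2.10 and 2.02 in NTg. These log2 ratios differed by 0.93 (exact permutation p = 0.0286, adjusted p = 0.0429), again with no overlap. App itself did not overlap between genotypes, and its paralogues and Prnp differed little. Both p-values therefore restate the App difference and add no separate support. Without Tg replicate 1 the differences were 1.02 and 0.96. With 3 against 4 libraries the exact permutation p was 0.0571 for both. That is the smallest this test can give at that size, because it doubles the smaller tail.

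The balance of the paralogues gave no difference past the threshold. The ratio of Aplp1 to Aplp2 counts was 1.49, 1.38, 1.38 and 1.70 in Tg, against 1.5, 1.51, 1.51 and 1.36 in NTg. The highest and the lowest ratio both came from replicates numbered 4, in Tg and in NTg. The log2 ratios differed by 0.014 (exact permutation p = 0.771, adjusted p = 0.771), and the difference changed sign when Tg replicate 4 was left out, to -0.052, or NTg replicate 4, to -0.023.

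**Figure D3:**
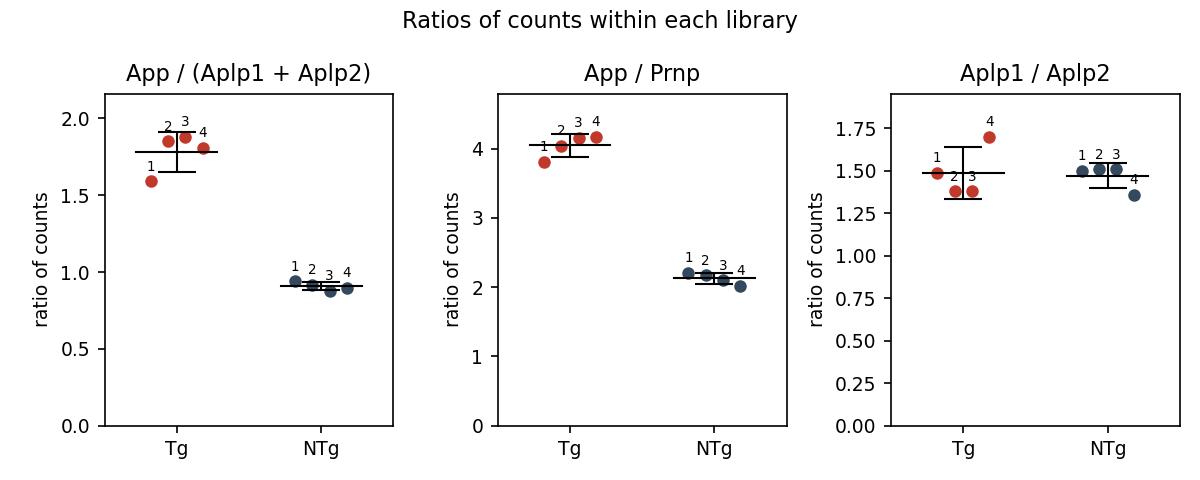
Ratio of counts within each library for App to the sum of Aplp1 and Aplp2, App to Prnp, and Aplp1 to Aplp2; points are libraries labelled by replicate number, lines with bars are the mean ± SD of 4, and axes start at 0. The first ratio lies between 1.59 and 1.88 in Tg and between 0.878 and 0.942 in NTg, and the third overlaps between genotypes.

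Levels of different genes were compared per kilobase. With the median length of protein-coding transcripts in GENCODE M21 (3.22 kb for App, 2.34 kb for Aplp1, 3.48 kb for Aplp2 and 2.18 kb for Prnp), App stood at 885 CPM per kb in Tg and 462 in NTg, Aplp1 at 408 in Tg and 416 in NTg, Prnp at 323 in Tg and 320 in NTg, and Aplp2 at 185 in Tg and 190 in NTg. The order App, Aplp1, Prnp, Aplp2 held in all 8 libraries. In NTg, App and Aplp1 were neighbours, at 432 to 504 and 381 to 441 CPM per kb across libraries, and their ranges overlapped. App made up 59.8 ± 1.92% of the summed level per kb of App, Aplp1 and Aplp2 in Tg and 43.2 ± 0.705% in NTg (SD, n = 4 each). The order rests on the length taken: with the merged exons of every transcript, which come to 13 kb for App, App was below Aplp1 and Prnp in both genotypes, at 219 CPM per kb in Tg and 114 in NTg, against 317 in Tg and 323 in NTg for Aplp1. Fold changes do not depend on length where both genotypes carry the same transcripts. For App in Tg, the level per kb and the share use mouse lengths. The length of the transgene's transcript was not taken into account there or in the fold change of App.

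Reads from overlapping genes could add to these rows, since the library kit does not mark strand. Antisense genes that overlap App had at most 127 counts in a library, and Prn, which shares 145 exon bases with Prnp, had at most 1 count. Both are far below the members' own counts. How reads in shared bases were assigned is not given, so these counts do not bound what such genes could add.

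The genes that act on App or bind it were examined next. None of the 12 secretase genes was called by edgeR or DESeq2 in either direction. Over all tested genes edgeR called 0.0139% and DESeq2 1.81%, shares that leave little room for a call in a list this short. Of the 12, 1 had an unadjusted edgeR p under 0.05, beside 7.36% of all tested genes. Their median log2 fold change was -0.009, beside -0.0024 over all 21588 tested genes. Adam10, the main alpha-secretase of neurons, stood at 96.4 ± 5.85 CPM in Tg and 96.4 ± 6.31 CPM in NTg (SD, n = 4 each). Bace1, the beta-secretase, stood at 74.4 ± 2.02 CPM in Tg and 77.7 ± 1.91 CPM in NTg, with a log2 fold change of -0.063. The smallest p of the list belonged to Adam17, an inducible alpha-secretase, at 25.9 ± 2.11 CPM in Tg and 22.9 ± 1.36 CPM in NTg (edgeR adjusted p = 0.583).

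The 18 adaptors of the App cytoplasmic tail likewise held no gene called by edgeR (0.0139% over all genes) or DESeq2 (1.81%). They held 1 with an unadjusted edgeR p under 0.05 (7.36% over all genes), and their median log2 fold change was -0.040. Klc1, a kinesin light chain, was the most abundant at 630 ± 45.5 CPM in Tg and 641 ± 31.5 CPM in NTg. Apbb1, which encodes the adaptor Fe65, stood at 350 ± 30.0 CPM in Tg and 367 ± 10 CPM in NTg. Shc3, a neuronal signalling adaptor, had 25.4 ± 2.53 CPM in Tg and 30.7 ± 3.99 CPM in NTg, with a log2 fold change of -0.27 (edgeR adjusted p = 0.527). Grb2, another signalling adaptor, had 137 ± 2.77 CPM in Tg and 145 ± 7.38 CPM in NTg, with a log2 fold change of -0.081.

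Of 24 sorting factors and surface partners, edgeR (0.0139% over all genes) and DESeq2 (1.81%) called 0. An unadjusted edgeR p under 0.05 was found for 2, a share near the 7.36% over all genes. The median log2 fold change was -0.018. Reln, the extracellular matrix glycoprotein reelin, had 106, 112, 116 and 103 CPM in Tg, against 85.5, 94.3, 90.5 and 107 CPM in NTg. The highest NTg library reached into the Tg range, and the log2 fold change was 0.21 with an SE of 0.071 (edgeR adjusted p = 0.421). Rtn4r, the Nogo receptor, had 28.1, 31.9, 24.8 and 47.5 CPM in Tg, against 20.3, 14.8, 18.6 and 25.9 CPM in NTg, and these overlapped. Its log2 fold change, the highest of this list, was 0.74 with an SE of 0.22 (95% interval 0.25 to 1.22, edgeR adjusted p = 0.324). Among the abundant members, Rtn3, a reticulon that binds Bace1, stood at 994 ± 19.0 CPM in Tg and 1027 ± 55.5 CPM in NTg. Itm2b, the dementia-associated protein Bri2, stood at 756 ± 25.5 CPM in Tg and 728 ± 30.1 CPM in NTg.

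On the prion side, Sprn, which encodes the prion-like protein Shadoo, had 110 ± 17.4 CPM in Tg and 106 ± 10.2 CPM in NTg, with a log2 fold change of 0.055. Prnd, which encodes Doppel, had 0 to 1 counts in Tg libraries and 0 to 2 counts in NTg libraries and was not tested. None of 8 partners of the prion protein was called by edgeR (0.0139% over all genes) or DESeq2 (1.81%). Of these partners 0 had an unadjusted edgeR p under 0.05 (7.36% over all genes), and their median log2 fold change was 0.016. Rpsa, a laminin receptor, stood at 352 ± 12.1 CPM in Tg and 335 ± 20.3 CPM in NTg, and Lrp1, an endocytic receptor that also binds App, at 394 ± 21.4 CPM in Tg and 384 ± 19.8 CPM in NTg. Adgrg6, the Schwann cell receptor for a prion protein fragment, had 5.09 ± 1.71 CPM in Tg and 3.77 ± 0.237 CPM in NTg, with an interval of its log2 fold change from -0.053 to 0.92.

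**Figure D4:**
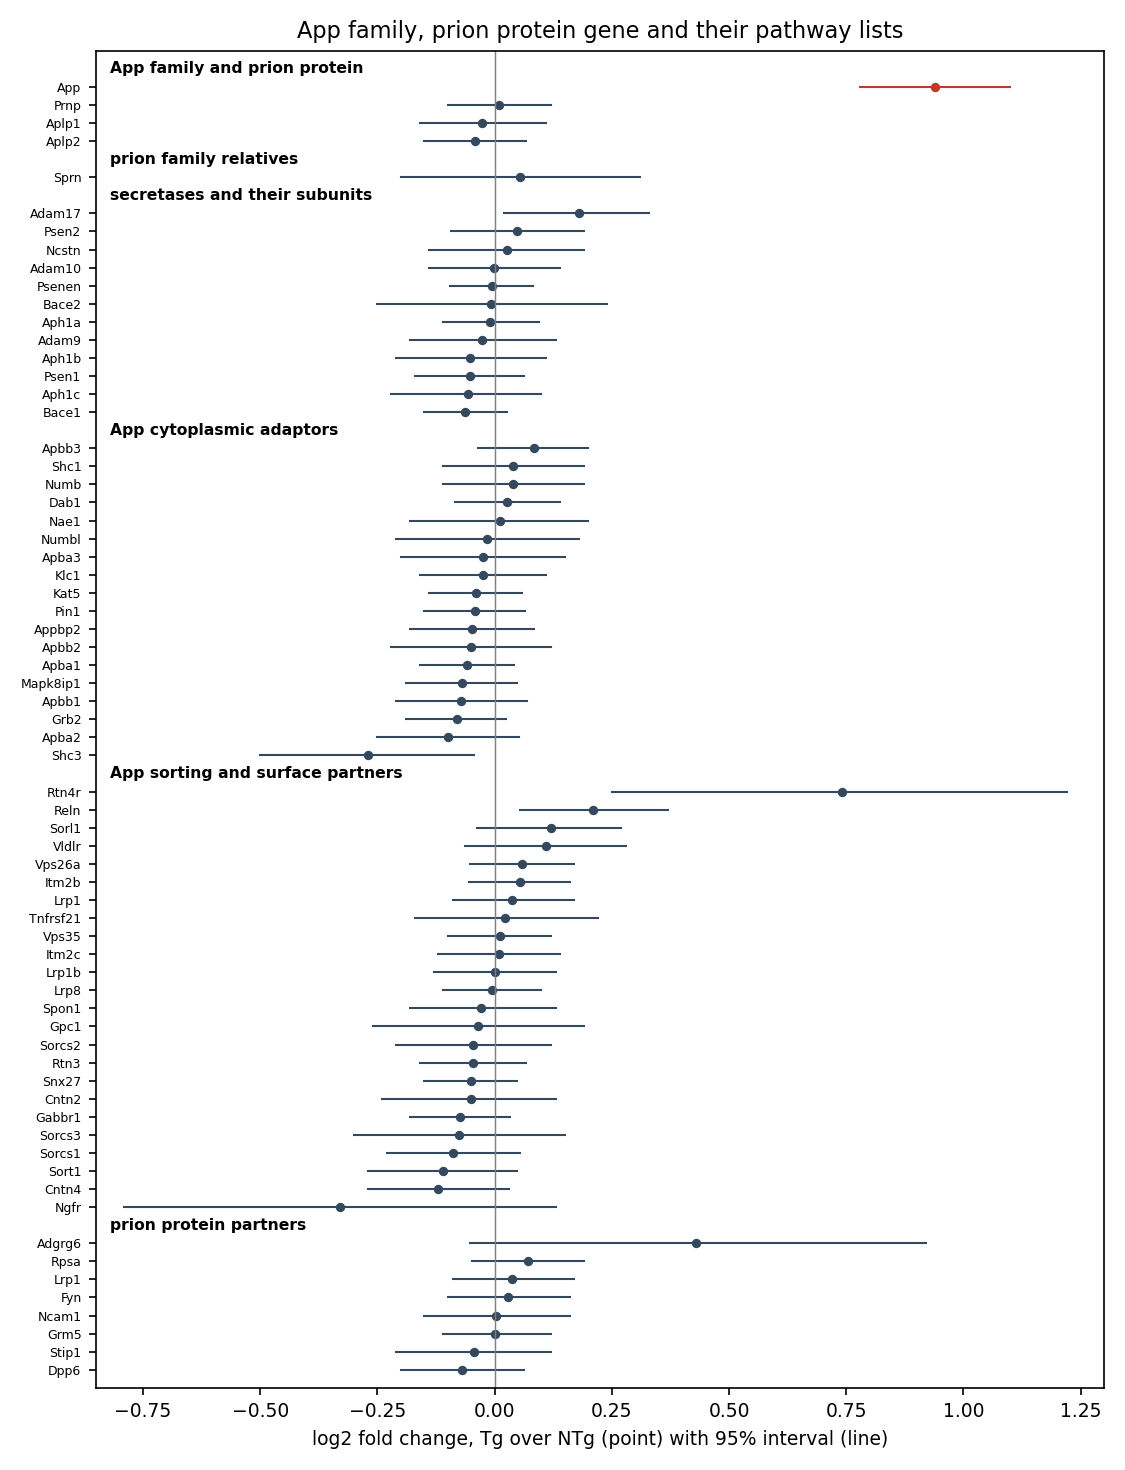
Log2 fold change, Tg over NTg, with its 95% interval for App, Aplp1, Aplp2, Prnp and the tested members of 5 lists of related genes, ordered within each list from highest to lowest. App, in red, is the gene called by edgeR at an adjusted p under 0.05, and most other intervals include 0.

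The genes next to each member on the chromosome, 5 tested protein-coding genes to each side in the gene order of GENCODE M21, gave no edgeR call. The share of edgeR calls over all tested genes was 0.0139%. An unadjusted edgeR p under 0.05 was found for 3 of the 10 neighbours of App, 5 of Aplp1, 1 of Aplp2 and 1 of Prnp, beside 7.36% of all tested genes. Beside App, Gabpa, a transcription factor gene, stood at 31.8 CPM in Tg and 31.4 CPM in NTg, and Cyyr1 at 8.31 CPM in Tg and 10.3 CPM in NTg. DESeq2, which called 1.81% of all genes it tested, called 0 of the 10 neighbours of App, 3 of Aplp1, 1 of Aplp2 and 0 of Prnp. The calls near Aplp1 were Tyrobp, the microglial signalling adaptor (52.8 CPM in Tg and 20.8 CPM in NTg, DESeq2 adjusted p = 4.98e-08), Kirrel2 (1.78 CPM in Tg and 3.17 CPM in NTg) and Hspb6, a small heat shock protein gene (6.74 CPM in Tg and 4.33 CPM in NTg). The call near Aplp2 was St14, a membrane serine protease gene, at 3.95 CPM in Tg and 1.70 CPM in NTg.

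Profiles across the 8 libraries were compared by the root-mean-square difference of centred log2 CPM over 10227 genes. The 5 genes most like App were Ctss, Gpr34, Hpgds, Olfml3 and Nckap1l, at 0.14 to 0.16, beside a median of 0.49. Of these genes edgeR called none (edgeR adjusted p 0.0723 to 0.107) while DESeq2 called all 5. The comparison spans both genotypes, so a higher level in Tg follows from how these genes were chosen. Ctss, the lysosomal protease cathepsin S, had 137, 199, 212 and 205 CPM in Tg, against 114, 87.3, 103 and 91.1 CPM in NTg. Gpr34, a microglial receptor, had 24.3, 29.6, 35.6 and 29.1 CPM in Tg, against 18.7, 16.8, 16.8 and 17.6 CPM in NTg. Microglial markers were higher on average in Tg for 6 of 6 genes, with sums of 366 to 598 CPM in Tg and 270 to 347 CPM in NTg, and astrocyte markers for 5 of 6, with sums of 3387 to 5240 CPM in Tg and 3189 to 3851 CPM in NTg. Choroid plexus markers were lower on average in Tg for 6 of 6 genes, with sums of 713 to 1097 CPM in Tg and 1163 to 1571 CPM in NTg, and oligodendrocyte markers for 6 of 6, with sums of 6519 to 7985 CPM in Tg and 7736 to 9564 CPM in NTg. Endothelial markers were lower for 5 of 5 genes, with sums of 116 to 162 CPM in Tg and 153 to 188 CPM in NTg, and red blood cell markers for 5 of 5, with sums of 448 to 3003 CPM in Tg and 1282 to 3271 CPM in NTg. The part of these lists in the App difference was not tested. Of all 21588 tested genes, 10615 had a fold change above 1 and 10973 below 1. None of these markers was called by edgeR, which called 0.0139% of all tested genes. DESeq2 calls of the marker lists are not given here. In whole tissue more cells of a type and more RNA per cell cannot be told apart.

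The genes nearest the other members were chosen in the same way. Small differences between genotypes, like those of the members, follow from that choice. For Aplp1 they were Ppp2r5d, Fam189b, Gnaz, Tbc1d10b and Atp9a, at 0.022 to 0.023 beside a median of 0.11. For Aplp2 they were March5, Fastkd1, Mdm2, Metap1 and Camsap2, at 0.022 to 0.024 beside a median of 0.10. For Prnp they were Ogdhl, Yipf3, Dag1, Capzb and Sptan1, at 0.024 to 0.029 beside a median of 0.10. Sptan1, the alpha-II spectrin gene, had 1136 ± 34.2 CPM in Tg and 1145 ± 12.2 CPM in NTg, and Dag1, the dystroglycan gene, had 92.7 ± 2.47 CPM in Tg and 92.6 ± 4.10 CPM in NTg.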

How the data were processed

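Polyadenylated RNA was sequenced as paired-end reads of 75 bases with a kit that does not mark strand, per the labels' protocols. The table the authors deposited holds unnormalized counts of reads, by Ensembl gene. STAR, DESeq2 and GRCm39 were used, per the submitters' processing notes; counter, annotation and versions: not given in the sources used here. All 8 columns were matched to samples by name, and 52073 of 56748 identifiers received a symbol from a name table.

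Genes were kept by filterByExpr (minimum count 10, minimum total 15), which left 21588; after TMM scaling they were tested with edgeR 4.0.16 in R 4.3.3 (quasi-likelihood F test, genotype only, Benjamini-Hochberg adjustment, threshold 0.05). The alternatives included DESeq2 1.42.0, limma 3.58.1 and a replicate block. CPM uses TMM-scaled library sizes, and the SE is the log2 fold change divided by the square root of F. For count ratios an exact permutation test was used, made two-sided by doubling the smaller tail. Counts were also simulated with 67 genes changed 1.5-fold, 67 changed 2-fold and 66 changed 3-fold among 21299. There the fit recovered 47.8% of 1.5-fold, 70.1% of 2-fold and 87.9% of 3-fold changes, with 10 false calls. More calls ease the adjustment, and the fit of the real counts called 3 genes. These shares therefore do not give the power in the real data. No pair of libraries of a genotype agreed within sampling noise (chi-square per degree of freedom 10.9 or more).

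The members, the gene lists and the tests were chosen with earlier results of these data known. Genes named are the 4 members; of each list the called members or, with none, the 2 most abundant and the 2 with the smallest p; the nearest neighbour on each side; and the 5 genes with the most similar profile. Gfap, Ttr, Tyrobp, Hspb6 and Prn were named, and the minimum of 500 CPM set, after values were seen. Some neighbours and list members that the rule allows are given only as counts, and 1 member of the list of sorting factors and surface partners is not reported here and is left out of its counts. Transcript lengths, gene order and overlaps come from GENCODE M21, on an older build than the counts, and promoters from RefSeq on GRCm38.p6. The median log2 fold change moved by at most 0.0249 under another scaling or fit.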

Additional observations from a re-analysis of the deposited data

Results flagged for a closer look

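In 6 of 100 groups of 4 libraries, the lowest or highest library stood apart from the other 3 by Dixon's criterion (95% critical value for the gap over the range), and chance gives about 1 in 20. Leaving out the genes picked for a profile like that of a member, which share its high and low libraries by that choice, it was 4 of 60. App in Tg replicate 1 was 2532 CPM, below the other Tg libraries at 2934 to 2980 CPM. Ctss, whose profile was among those most like App, was 137 CPM in the same library, below 199 to 212 CPM in the others. Yipf3, whose profile was like that of Prnp, was 39.4 CPM in that library, below 41.5 to 41.8 CPM. Prnp in NTg replicate 1 was 734 CPM, above the other NTg libraries at 685 to 691 CPM. Klc1 in Tg replicate 4 was 698 CPM, above replicates 1 to 3 at 603 to 612 CPM. The log2 ratio of Aplp1 to Aplp2 counts in NTg replicate 4 was 0.44, below 0.58 to 0.60 in the other NTg libraries.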

How the results depend on the processing

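App stayed called with the same direction in 17 of 18 alternatives, at a log2 fold change of 0.93 to 0.96 across settings and 0.91 to 0.99 with each library left out in turn (edgeR adjusted p 0.000356 to 0.0174). With the replicate number as a block its value was 0.94 and its edgeR adjusted p 0.0838, past the threshold no longer, and 1 gene was called in all. Under the same block the ratios of App to its paralogues and to Prnp differed by 0.97 and 0.93, with an exact sign-flip p of 0.125, the smallest that 4 pairs can give. The numbers are not said to pair samples: deviations of same-numbered libraries correlated at 0.0656, -0.0321, 0.155 and -0.00894, and Tg replicate 1 correlated best with NTg replicate 4 (0.0853). The number of genes called was 3, 352 with DESeq2 and 127 without the filter on low counts, and 3 to 314 with a library left out (314 without Tg replicate 1, 9 without Tg replicate 2, 16 without NTg replicate 1); the cause was not tested. With a library left out, the 2 App ratios differed by 0.94 to 1.02 and by 0.90 to 0.96 at an exact permutation p of 0.0571. That is the smallest that 3 against 4 can give with the smaller tail doubled. Values near 0 changed sign: Aplp1 ran from -0.066 to 0.0016, Prnp from -0.0049 to 0.036 and the ratio of Aplp1 to Aplp2 from -0.052 to 0.049, while Aplp2 stayed below 0 (-0.058 to -0.013). Aplp1 crossed 0 without NTg replicate 1 and Prnp without Tg replicate 2. The 5 genes with profiles most like App, not called by edgeR, were called with DESeq2, without the filter and without Tg replicate 1. Depth was not the limit for the 4 members, whose counting error was at most 0.53%.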
